A study of Mus musculus with 10 samples.

Results

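Thbs1, Thbs2, Thbs3, Fn1, Sparc, Sparcl1, Tnxb and Postn, 8 genes of secreted proteins of the extracellular matrix, were followed through the cells of mouse inguinal fat. The genes were chosen by symbol, and all 8 were found among the 14623 genes of the table. Thbs1 was picked for its large difference between the genotypes in stromal cells, so its values there are a description and support nothing further.

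To investigate the effect of ciliary dysfunction on the precursors of fat cells, the SVF (stromal vascular fraction, or digested fat freed of its adipocytes) of inguinal white adipose tissue (iWAT) was taken from lean mice aged 7 weeks. A Bbs8-/- mouse (Bbs8 KO) was compared with a Bbs8+/+ mouse (Bbs8 WT). Bbs8 encodes a subunit of the BBSome, the complex that carries membrane proteins into and out of the primary cilium, and it was absent from all cells of the knockout, not from a single cell type. The labels list 10 samples, 5 per genotype, but the series text names 1 mouse per genotype, and these were therefore read as technical libraries. The strain was not given in the sources used here. No p-value is given, since a difference between the mice has no replicate check.

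Single cells had been paired with barcoded beads in Seq-Well arrays, and each captured RNA molecule was counted by its unique molecular identifier (UMI). The table held 8985 Bbs8 KO and 1929 Bbs8 WT cells with a median of 251 and 278 UMIs per cell. Cells came in 10 barcode sets, 5 per genotype, with 538160 to 701136 UMIs per Bbs8 KO set and 68989 to 303732 UMIs per Bbs8 WT set. The codes of the sets begin with KO5 or KO6 and with WT3 or WT4, numbers that no source explains. The methods describe more than 1 array per sample, with the PCR reactions pooled in groups. The numbers may therefore be arrays and the sets pools of the same arrays, but this match was not stated. Sets that share a number may thus not be independent. Of 10847 barcodes, 36 were found in more than 1 set. Ttc8, the name of Bbs8 in the table, was counted 5 times in Bbs8 WT, each time outside the stromal cells, and 0 times in Bbs8 KO. The limit that this 0 sets is 0.954 CPM, CPM being UMIs of a gene relative to all UMIs of the group on the usual scale. Some unnamed clusters came mostly or wholly from 1 barcode set, with 479 of 485 cells from KO5_p2 in the largest and 334 of 353 from KO5_p3 in the next. Smaller ones held 82 of 107 and 47 of 47 cells from KO6_p1. None of these was counted as stromal.

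Matricellular proteins are secreted into the matrix and bind cell-surface receptors, growth factors and fibres rather than forming the load-bearing scaffold. Thrombospondins bind CD36, CD47 and integrins, and thrombospondin 1 can release active TGF-beta from its latent complex. Fibronectin is the adhesive glycoprotein on which collagen and other fibres assemble, SPARC binds collagen, tenascin X spaces collagen fibrils and periostin helps to cross-link collagen. In fat, the precursors in the stroma make most of this matrix, and its excess is known as fibrosis.

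Stromal cells were clusters led by the pan-stromal markers, among them Pdgfra, Dcn, Lum and the fibrillar collagens, and numbered 1907 in Bbs8 KO and 796 in Bbs8 WT. They were divided by markers into P1-like cells (Dpp4, Pi16, the stem-like precursors, 491 and 221 cells), P2-like cells (Col15a1, Icam1, Pparg, the committed precursors, 563 and 242), P3-like cells (F3, Gdf10, the regulatory population, 157 and 91) and marker-poor stromal cells (696 and 242) that met none of these lists. The clusters were built from all genes, the 8 members included, and Postn was among the leading genes of the P2-like cluster, so differences between classes are descriptions.

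The members lie on different chromosomes or far apart on the same one (GRCm38, GENCODE M21). Thbs1 is on chromosome 2 (118111876 to 118127133, plus strand), Fn1 on chromosome 1 (71585520 to 71653200, minus), Sparc on chromosome 11 (55394500 to 55423183, minus) and Sparcl1 on chromosome 5 (104079111 to 104113733, minus). Postn (54361109 to 54391037) and Thbs3 (89215180 to 89226837) are both on the plus strand of chromosome 3. Thbs2 (14665500 to 14694235, minus) and Tnxb (34670535 to 34719815, plus) are both on chromosome 17. Thbs3 overlaps Mtx1, which is also in the table and lies on the other strand.

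The promoters of Thbs2, Thbs3 and Tnxb are shown as one of the groups of members with alike levels over the cell classes, and that of Postn because it was a leading gene of the P2-like cluster. No promoter is shown for Thbs1, Fn1 and Sparcl1, which had no entry in the promoter reference. That of Sparc is not shown either, since its entry lay 3103 bases from the start of the gene. Each run holds 250 bases before and 50 after the start site, 5′ to 3′ on the strand of the gene (RefSeq, GRCm38.p6: Thbs2 chr17:14694213-14694512, minus; Thbs3 chr3:89214930-89215229, plus; Tnxb chr17:34670285-34670584, plus; Postn chr3:54360857-54361156, plus). Capitals mark matches on either strand to TATAAA (the TATA box), GGGCGG (the GC box), CCAAT or TGANTCA (the AP-1 motif).
Thbs2: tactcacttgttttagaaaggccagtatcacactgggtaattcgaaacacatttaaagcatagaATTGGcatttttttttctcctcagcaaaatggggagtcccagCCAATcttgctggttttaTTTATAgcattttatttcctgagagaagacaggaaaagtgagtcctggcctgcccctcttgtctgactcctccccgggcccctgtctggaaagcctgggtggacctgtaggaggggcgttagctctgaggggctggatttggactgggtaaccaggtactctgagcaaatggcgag
Thbs3: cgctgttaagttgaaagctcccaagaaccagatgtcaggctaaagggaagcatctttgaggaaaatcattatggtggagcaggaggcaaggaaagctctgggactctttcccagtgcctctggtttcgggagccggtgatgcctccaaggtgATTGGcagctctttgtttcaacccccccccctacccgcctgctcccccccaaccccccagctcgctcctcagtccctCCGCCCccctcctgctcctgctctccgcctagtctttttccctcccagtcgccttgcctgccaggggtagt
Tnxb: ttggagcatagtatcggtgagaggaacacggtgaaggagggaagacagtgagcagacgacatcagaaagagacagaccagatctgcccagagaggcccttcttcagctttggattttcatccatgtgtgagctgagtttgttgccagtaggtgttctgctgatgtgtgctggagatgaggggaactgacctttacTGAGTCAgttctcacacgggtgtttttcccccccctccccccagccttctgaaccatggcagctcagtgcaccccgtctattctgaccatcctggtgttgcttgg
Postn: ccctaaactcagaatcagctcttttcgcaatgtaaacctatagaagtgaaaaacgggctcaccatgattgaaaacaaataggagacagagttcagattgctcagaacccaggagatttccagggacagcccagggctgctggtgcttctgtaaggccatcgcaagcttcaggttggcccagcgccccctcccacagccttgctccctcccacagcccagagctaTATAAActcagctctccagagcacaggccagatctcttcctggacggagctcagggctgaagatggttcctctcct
Among these 4, TATAAA was found in Thbs2 and Postn, and 13.6% of the 32851 promoters of the table hold it. CCAAT was found in Thbs2 and Thbs3 (37.4% of all promoters), GGGCGG in Thbs3 (35.7%) and TGANTCA in Tnxb (7.81%). None of these motifs was found in all 3 promoters of Thbs2, Thbs3 and Tnxb. A match is a description of the letters and not a site in use.

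In the stroma, Thbs1 and Postn were highest in P2-like cells, Thbs3 and Tnxb in P1-like and P3-like cells, and Sparc varied little between the 3 named subtypes. Outside it, Fn1 was abundant in monocyte-like cells, and Sparc and Sparcl1 in endothelial-like and pericyte-like cells. Levels are compared within a gene and not between genes.

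Fn1 stood at 4298 CPM (95% Poisson interval 4042 to 4567) in P1-like cells of Bbs8 KO and at 5369 CPM in those of Bbs8 WT. It stood at 2386 CPM (2162 to 2628) in the 375 monocyte-like cells of Bbs8 KO and at 3193 CPM (2732 to 3709) in the 139 of Bbs8 WT. Relative to pan-stromal markers, Fn1 had 602 and 757 UMIs per 1000 pan-stromal UMIs in monocyte-like cells against 47.2 and 45.4 in stromal cells. In T cell-like cells, which should lack the gene, Fn1 stood at 127 CPM in both genotypes.

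From P1-like over P2-like to P3-like cells, Sparc stood at 9928, 9257 and 9062 CPM in Bbs8 KO and at 8230, 9566 and 9738 CPM in Bbs8 WT. It reached 4689 CPM in endothelial-like and 4120 CPM in pericyte-like cells of Bbs8 KO, and 238 CPM in T cell-like cells. Sparcl1, a relative of SPARC that is abundant in vessel walls, had its highest level in Bbs8 KO in endothelial-like cells, at 2860 CPM (2570 to 3173), with pericyte-like cells at 2686 CPM (2442 to 2948), whose interval overlaps. In Bbs8 WT its highest level was in P2-like cells, at 3294 CPM (2982 to 3630), above the 2416 CPM (1916 to 3007) of endothelial-like cells.

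Over the 13 named classes in each genotype (26 points, which share libraries and depth), the most alike members were Sparc and Postn, with a Pearson r of 0.89 on log2(CPM + 5), followed by Sparc and Sparcl1 at 0.86. Thbs2 and Tnxb had an r of 0.85, Thbs3 and Tnxb of 0.84 and Thbs2 and Thbs3 of 0.82, and Fn1 and Postn, Sparc and Tnxb, and Sparcl1 and Postn each of 0.81. Thbs1 was the least like the others, with r between 0.18 (Tnxb) and 0.44 (Sparc). The 26 points include the genotype difference for which Thbs1 was picked, and many of its Bbs8 WT classes held 0 UMIs. Its r values, also those with the genes named next, are therefore a description. Among 3659 genes with at least 200 UMIs, those most like Thbs1 were Dclk1 (r = 0.69), Adam12 (0.65), Rnf11 (0.64), Fgf10 (0.64) and Anapc1 (0.63). Fn1 was most like S100a6 (0.90), Tppp3, Lgals1, Anxa1 and Col3a1 (0.86), and Sparc most like Lamc1 (0.96), Tuba1a, Calu, Lpl and Col3a1 (0.93).

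**Figure D1:**
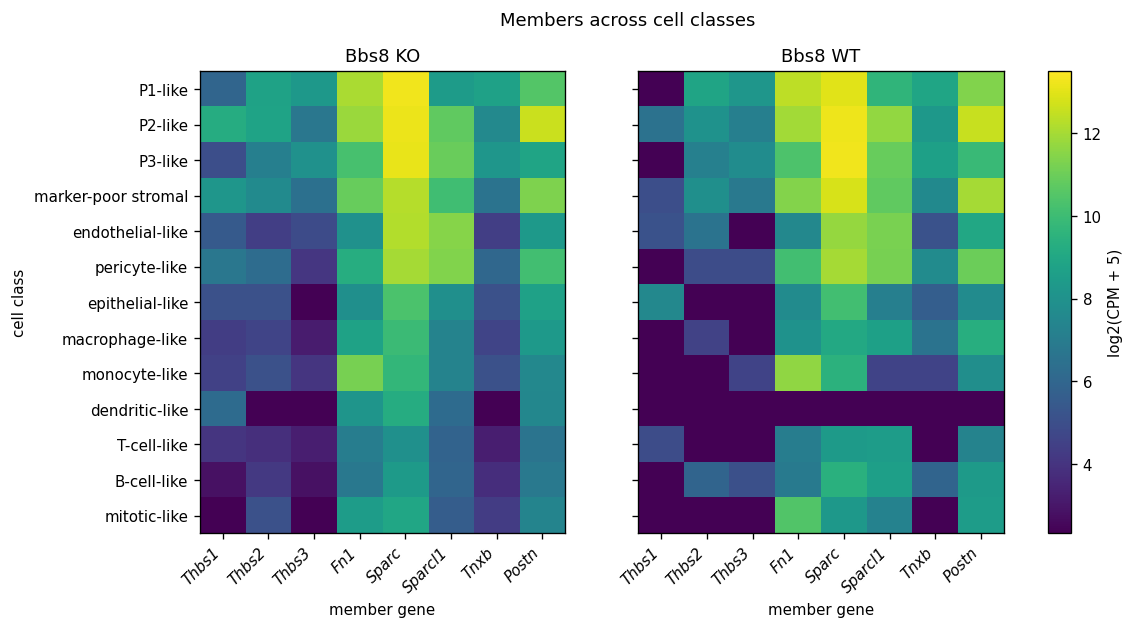
Level of each member as log2(CPM + 5), by named cell class (rows) and gene (columns), for Bbs8 KO (left) and Bbs8 WT (right). Fn1 is bright in the monocyte-like row and Sparcl1 in the endothelial-like and pericyte-like rows, the darkest colour is 0 UMIs, and the dendritic-like row of Bbs8 WT holds only 6 cells.

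Thbs1, which encodes thrombospondin 1, was 8.24 times as high (4.73 to 15.7) in all stromal cells of the Bbs8 KO mouse as in those of the Bbs8 WT mouse. The 5 Bbs8 KO sets stood at 458 CPM (KO5_p2), 328 CPM (KO5_p3), 322 CPM (KO6_p1), 242 CPM (KO6_p2) and 263 CPM (KO6_p3). The 5 Bbs8 WT sets stood at 0 (WT3_p1), 41.1 (WT3_p2), 0 (WT3_p3), 43.6 (WT4_p2) and 64.2 CPM (WT4_p3), and the sets with 0 UMIs allow up to 67.8 and 98.9 CPM. All Bbs8 KO sets were above all Bbs8 WT sets and above the limits of the empty ones.

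Summed, there were 264 Thbs1 UMIs or 316 CPM (279 to 357) in Bbs8 KO and 13 UMIs or 38.4 CPM (20.4 to 65.6) in Bbs8 WT, a log2 ratio of 2.89 with a pseudocount of 5 CPM. By number in the set code, Thbs1 stood at 399 CPM in KO5, 277 in KO6, 16.2 in WT3 and 51.0 in WT4. Of 7342 genes with at least 20 UMIs in stromal cells, 13.9% were at least 2-fold higher in Bbs8 KO (log2 ratio of 1 or more), 2.34% at least 2-fold lower, 5.42% had all Bbs8 KO sets above all Bbs8 WT sets and 1.44% the reverse. Among the 733 genes with at least 200 UMIs, as each member had, 3.41% were at least 2-fold higher and 2.18% at least 2-fold lower. Thbs1 was the only member past the fold upwards, and none was past it downwards. Its ratio ranked 32 from the highest, which the choice of the gene used. Higher calls made up 85.6% of all calls, but 71.5% with TMM, 71.0% with DESeq2 scaling and 61.0% among genes with at least 200 UMIs, and the log2 ratios of the 7342 genes had a median of 0.15, which TMM moved by -0.19 and DESeq2 by -0.20.

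P2-like cells held most of the Thbs1 UMIs. There it stood at 604 CPM (521 to 697, 187 UMIs) in Bbs8 KO, with sets at 796, 608, 538, 552 and 579 CPM, and at 89.0 CPM (44.4 to 159, 11 UMIs) in Bbs8 WT, with sets at 0, 118, 0, 113 and 95.3 CPM. The sets did not overlap, and the ratio was 6.79 (3.71 to 13.8). Among 3757 genes tested in P2-like cells, 11.6% were at least 2-fold higher and 2.87% had all Bbs8 KO sets above. A Thbs1 UMI was found in 21.8% (18.5 to 25.5) of P2-like Bbs8 KO cells and in 3.31% (1.44 to 6.41) of Bbs8 WT cells. With each cell thinned to 200 UMIs, which left out 58 and 13 shallower cells, the shares were 10.3% (7.79 to 13.3) and 0.873% (0.106 to 3.12). In T cell-like cells, which should lack the gene, the unthinned shares were 0.387% and 0.662%. The median depths were 249.5 and 233 UMIs in T cell-like cells and 428 and 383.5 UMIs in P2-like cells of Bbs8 KO and Bbs8 WT.

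In marker-poor stromal cells Thbs1 stood at 291 CPM (61 UMIs) in Bbs8 KO, with sets from 172 to 576 CPM, and at 27.2 CPM (2 UMIs) in Bbs8 WT, both UMIs being in WT4_p3. The set values did not overlap there, against 4.38% of 2464 genes, but the 4 empty Bbs8 WT sets allow from 115 up to 316 CPM, and 3 of the Bbs8 KO sets (172, 191 and 251 CPM) lie under the highest of these limits. At least 2-fold higher were 17.5% of those genes. In P1-like cells Thbs1 had 14 UMIs or 57.5 CPM in Bbs8 KO and 0 in Bbs8 WT, which allows 30.1 CPM, and the 95% interval of the ratio began at 1.36. KO6_p1 held 8 of the 14 UMIs, and without it (6 UMIs) or without WT4_p2 the interval of the log2 ratio began at -0.72 or -0.33 and included equality. The Bbs8 KO sets ranged from 0 to 162 CPM and overlapped with Bbs8 WT. P3-like cells held 2 UMIs and 0 UMIs, too few for a comparison.

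Outside the stroma, few Thbs1 UMIs were counted in the named classes, and its direction was not uniform. Pericyte-like cells had 17 UMIs (103 CPM) in Bbs8 KO and 0 in Bbs8 WT, which allows 76.1 CPM, and the interval of the ratio began at 0.985 and so includes equality. Epithelial-like cells, with mammary markers such as Krt8 and Csn2, had 1 UMI (29.4 CPM) in Bbs8 KO and 8 UMIs (183 CPM, 79.0 to 360) in Bbs8 WT, the highest level of any Bbs8 WT class, with an interval that overlaps that of P2-like cells. There the interval of the ratio, 0.00362 to 1.199, includes equality too. Endothelial-like cells had 5 UMIs and 1 UMI, and B cell-like cells 1 UMI and 0.

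**Figure D2:**
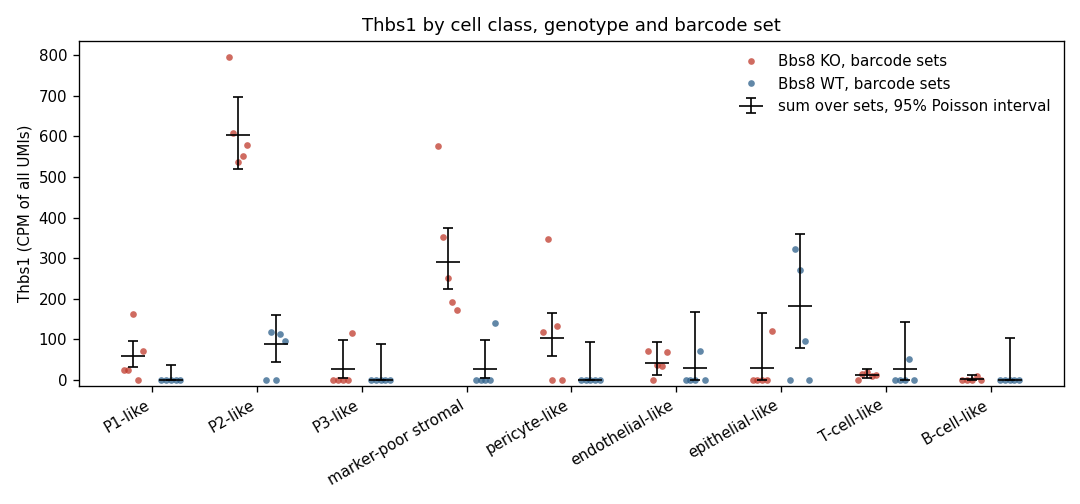
Thbs1 in CPM of all UMIs (y axis) by cell class (x axis), with points for barcode sets and bars for the sum over sets with its exact Poisson 95% interval. The Bbs8 KO sets of P2-like cells lie between 538 and 796 CPM and the Bbs8 WT sets at or under 118 CPM, while the epithelial-like class has the higher value in Bbs8 WT.

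Thbs1 was also read by depth, as a description, since the UMIs are those for which the gene was picked. In 5 bins of UMIs per stromal cell, Thbs1 stood at 470, 365, 324, 263 and 298 CPM from the shallowest to the deepest bin in Bbs8 KO, and at 86.5, 22.3, 18.2, 13.01 and 57.6 CPM in Bbs8 WT. Bbs8 WT had only 1 or 2 UMIs in each of the 4 shallower bins.

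Immediate early genes, which digestion of tissue can switch on, summed to 1420 CPM (sets 1169 to 1593) in stromal cells of Bbs8 KO. The sum was 1562 CPM (1413 to 1809) in those of Bbs8 WT, 19 of 20 listed genes being in the table. Without stromal cells that held any UMI of them, the log2 ratio of Thbs1 was 3.52, on 128 and only 4 UMIs, and the part of these genes in its level was not tested. Markers of T cells, B cells and macrophages were higher in the stromal cells of Bbs8 KO. The 8 T cell markers summed to 686 CPM against 154, the 8 B cell markers to 1212 against 301 (Cd79a at 0 in Bbs8 WT), the 9 macrophage markers to 776 (468 to 1111) against 260 (33.0 to 392.3). The 8 monocyte markers summed to 408 against 340, with overlapping sets (Chil3 at 0 in Bbs8 KO, Cx3cr1 in Bbs8 WT). Without stromal cells that held a UMI of these lists, the log2 ratio of Thbs1 was 2.78, on 98 and 9 UMIs. The 8 endothelial markers (365 against 112 CPM) and the mitotic markers (7 of 8 in the table, 269 against 29.5 CPM, with Cenpf, Ube2c and Stmn1 at 0 in Bbs8 WT) were higher as well, without overlap of the sets. The same held for the 8 dendritic markers, at 206 against 118 CPM, of which 3 were detected in Bbs8 WT.

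Of the markers of the stroma itself, those of P1 did not differ beyond the sets, and the other lists were lower in the stromal cells of Bbs8 KO. The 8 pan-stromal markers summed to 67418 CPM (sets 62281 to 72438) against 83142 CPM (75437 to 96074) for the wild type, the 8 P2 markers to 5940 against 8746 CPM and the 8 P3 markers to 1373 against 2161 CPM, each without overlap. The 8 P1 markers summed to 3930 against 3791 CPM, with overlapping sets (3164 to 4561 and 3148 to 4462 CPM). Per 1000 pan-stromal UMIs, Thbs1 stood at 4.69 and 0.462, Thbs2 at 5.17 and 3.52 and Sparcl1 at 17.7 and 24.6, in the same direction as their CPM. On that scale Fn1 (47.2 and 45.4), Sparc (124 and 105), Postn (51.0 and 47.9) and Thbs3 (2.52 and 2.24) were higher in Bbs8 KO, where their CPM was lower, and Tnxb stood at 3.53 and 4.12. The part of these markers in the members' values was not tested.

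Within the P2-like cells of Bbs8 KO, 123 cells with a Thbs1 UMI were set beside 440 without one. Cells with a UMI were deeper, with a median of 587 against 404 UMIs, and all values leave out Thbs1 itself. Fn1 stood at 4751 CPM in cells with a Thbs1 UMI and 3200 CPM in those without, a log2 ratio of 0.57 (0.39 to 0.75). Sparcl1 stood at 1343 against 1926 CPM (log2 -0.52, -0.83 to -0.22). The immediate early genes stood at 2112 against 1431 CPM (0.56, 0.29 to 0.83), and the P1 markers at 1159 against 1593 CPM (-0.46). Postn, Sparc, Thbs2, Tnxb and Thbs3 had log2 ratios from -0.46 (Thbs3, on 7 and 25 UMIs) to 0.18 (Postn). KO5_p2 had the highest Thbs1 and Fn1 (5030 CPM) and the lowest Sparcl1 of the P2-like Bbs8 KO sets. Within single sets, Fn1 was higher in the cells with a Thbs1 UMI in 5 of 5 (log2 ratios 0.12 to 0.91), and Sparcl1 lower in 4 of 5 (-1.24 to 0.09). Without KO5_p2 the ratios were 0.55 (0.35 to 0.75) for Fn1 and -0.53 (-0.86 to -0.22) for Sparcl1. The part of depth and of the immediate early genes in these values was not tested.

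The other thrombospondins were not picked for their ratios. Thbs2, which like Thbs1 encodes a trimeric thrombospondin, stood at 362, 468, 306, 372 and 287 CPM in the stromal sets of Bbs8 KO and at 294, 308, 396, 291 and 244 CPM in those of Bbs8 WT, and the sets overlapped. Its log2 ratio in all stromal cells was 0.25 (-0.08 to 0.60) and in P2-like cells 0.80 (0.24 to 1.42), on 136 and 31 UMIs, again with overlapping sets. Thbs3, a pentameric thrombospondin, stood at 88.9, 181, 182, 230 and 161 CPM in Bbs8 KO and at 249, 164, 165, 174 and 193 CPM in Bbs8 WT. Its log2 ratio was -0.13 (-0.57 to 0.32). The intervals of Thbs2 and Thbs3 in all stromal cells leave room for a change of either sign, while that of Thbs2 in P2-like cells lies above 0.

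Sparcl1 had the most even difference in the other direction. Its stromal sets stood at 937, 1215, 1294, 1436 and 1072 CPM in Bbs8 KO and at 1741, 2385, 1979, 1874 and 2338 CPM in Bbs8 WT. All Bbs8 WT sets were above all Bbs8 KO sets, and Sparcl1 was the only member of which this was true in all stromal cells. The log2 ratio was -0.77 (-0.92 to -0.64). By number in the set code it stood at 1063 and 1256 CPM in KO5 and KO6 and at 2054 and 2042 CPM in WT3 and WT4.

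In P2-like cells Sparcl1 stood at 1761 CPM (sets 1243 to 2175) in Bbs8 KO and at 3294 CPM (sets 2556 to 4498) in Bbs8 WT. There, 2 of the 8 members, Sparcl1 and Tnxb, had all Bbs8 WT sets above, against 1.46% of genes. In P1-like cells Sparcl1 stood at 341 and 783 CPM with overlapping sets (233 to 468 and 348 to 1344 CPM, log2 -1.19). It was the only 1 of 7 members tested that was at least 2-fold lower there, against 6.54% of 2736 genes. Without the highest Bbs8 WT set, Sparcl1 was no longer at least 2-fold lower in these cells. In P3-like cells it stood at 1991 and 1905 CPM. Sparcl1 was also counted in immune classes, which should lack it, where the sets overlapped in each class and the direction was not uniform. It stood at 53.1 CPM in T cell-like cells of Bbs8 KO but at 357 CPM (195 to 598, 14 UMIs) in those of Bbs8 WT, and at 58.4 and 391 CPM in B cell-like cells. The 14 UMIs of the B cell-like Bbs8 WT cells lay in 4 of 114 cells, 8 of them in 1 cell, and all in WT4_p2. In macrophage-like cells it stood at 153 and 400 CPM (39 and 22 UMIs). Monocyte-like cells had the higher value in Bbs8 KO, 156 CPM (27 UMIs) against 18.7 CPM (1 UMI), with a ratio of 8.33 (1.37 to 341). The source of these UMIs was not tested.

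**Figure D3:**
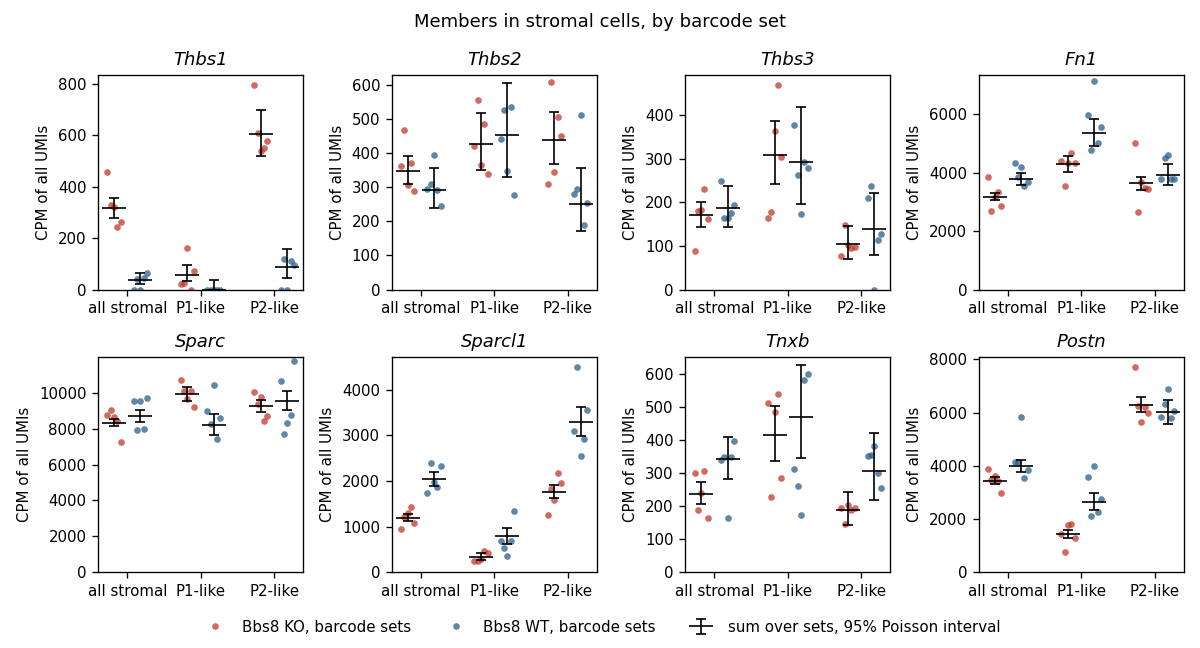
Each panel gives 1 member in CPM of all UMIs (y axis, from 0) in all stromal, P1-like and P2-like cells (x axis), with points for barcode sets and bars for the sum over sets with its exact Poisson 95% interval. In all stromal and P2-like cells the Bbs8 KO sets lie wholly above those of Bbs8 WT for Thbs1 and wholly below them for Sparcl1, both genes overlap in P1-like cells, and the sets of Thbs2, Thbs3 and Sparc overlap in each panel.

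Fn1 stood at 3843, 2684, 3179, 3350 and 2869 CPM in the stromal sets of Bbs8 KO and at 4342, 3865, 4188, 3530 and 3674 CPM in those of Bbs8 WT. Only KO5_p2 reached into the range of Bbs8 WT. Its log2 ratio was -0.25 (-0.34 to -0.15), but the direction turned relative to the pan-stromal markers, as given above. The difference was also not seen in the deepest bin of cells. In P1-like cells the sets of Bbs8 KO (3536 to 4683 CPM) were all under those of Bbs8 WT (4791 to 7133 CPM), with a log2 ratio of -0.32 (-0.47 to -0.17). In P2-like cells it was -0.11 (-0.27 to 0.04).

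Postn, which encodes periostin, differed between the genotypes by class. In P1-like cells the Bbs8 KO sets stood at 1424, 758, 1759, 1801 and 1269 CPM and the Bbs8 WT sets at 3584, 2100, 4001, 2259 and 2734 CPM, without overlap, and the log2 ratio was -0.88 (-1.12 to -0.65). Fn1 and Postn were the 2 of 7 members tested in P1-like cells whose Bbs8 WT sets were all above, against 1.24% of genes. In P2-like cells, where Postn was most abundant, the levels were 6291 and 6013 CPM, with the log2 ratio at 0.07 (-0.06 to 0.19). In P3-like cells it was at least 2-fold lower (453 and 952 CPM, on 33 and 40 UMIs, 7% of 743 genes being so), but without WT4_p2 the log2 ratio was 0.31.

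Sparc stood at 7268 to 9063 CPM over the stromal sets of Bbs8 KO and at 7957 to 9726 CPM over those of Bbs8 WT, and its log2 ratio of -0.06 (-0.12 to 0.00) turned to 0.041 without cells that held immune UMIs and to 0.067 without integration. It differed in opposite directions by class, at 0.27 (0.16 to 0.39) in P1-like cells, with overlapping sets, and at -0.58 (-0.74 to -0.43) in marker-poor stromal cells. In the latter, the Bbs8 KO sets (4143 to 5507 CPM) were all under the Bbs8 WT sets (5914 to 9197 CPM), against 2.39% of genes. The pan-stromal markers of these cells summed to 40103 CPM for the knockout and 71815 CPM for the wild type, the T cell markers to 1323 and 231 CPM and the B cell markers to 2196 and 531 CPM, each without overlap of the sets. Per 1000 pan-stromal UMIs the direction turned, with Sparc at 122 and 102, and so did that of Sparcl1 in these cells, at 26.7 and 24.3.

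Tnxb, which encodes tenascin X, stood at 301, 189, 239, 307 and 166 CPM in the stromal sets of Bbs8 KO and at 339, 350, 165, 349 and 398 CPM in those of Bbs8 WT. The lowest set of all was WT3_p3, with 5 UMIs. The log2 ratio was -0.51 (-0.86 to -0.18), but 0.013 without the cells that held immune UMIs. In P2-like cells the sets did not overlap (147 to 205 CPM and 254 to 383 CPM), with a log2 ratio of -0.70 (-1.33 to -0.08) on 58 and 38 UMIs. In marker-poor stromal cells it was at least 2-fold lower, as 9.09% of genes were, on 19 and 14 UMIs with overlapping sets and an interval that includes equality (-2.14 to 0.04), and per 1000 pan-stromal UMIs it stood at 2.26 and 2.65.

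**Figure D4:**
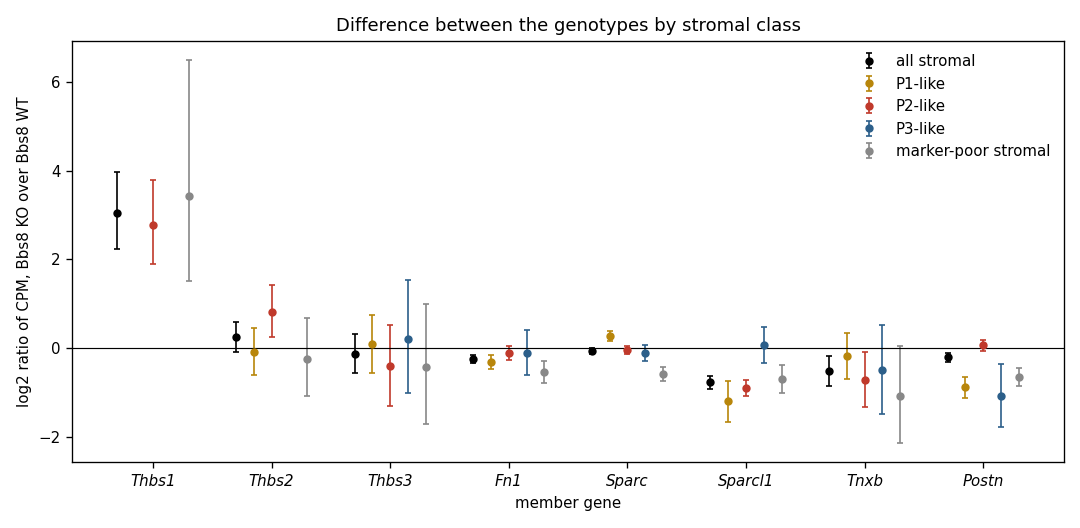
Log2 ratio of CPM, Bbs8 KO over Bbs8 WT, without a pseudocount (y axis), for each member (x axis) in all stromal cells and 4 stromal classes, with exact 95% intervals that cover counting error only. Classes with fewer than 20 UMIs or with 0 UMIs in Bbs8 WT are left out, the Thbs1 intervals lie wholly above 0, and those of Sparcl1 lie wholly below 0 except in P3-like cells.

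Other genes of the same kind were read from lists. The list of other matricellular genes held 23 symbols, among them both the old and the new names of the CCN genes. Of these symbols, 11 were in the table, each a different gene, and 9 had at least 20 stromal UMIs. Of the 9, 3 were at least 2-fold higher and 2 at least 2-fold lower, against 13.9% and 2.34% of all genes tested. All Bbs8 KO sets were above in 2 and all Bbs8 WT sets in 3, against 5.42% and 1.44% of all genes. The median log2 ratio was -0.19 beside 0.15 over all genes. Tnc, which encodes tenascin C, had 53 UMIs or 63.5 CPM (sets 32.8 to 102) in Bbs8 KO and 0 UMIs in Bbs8 WT, which allows 8.86 CPM, and the interval of its log2 ratio began at 2.49. Of these UMIs, 36 lay in P2-like cells. Nov, a member of the CCN family, had 42 UMIs or 50.3 CPM (sets 34.2 to 65.0) and 0 UMIs, with an interval of the log2 ratio from 2.14 upwards, and 34 of them lay in P1-like cells. Spock2, a proteoglycan of the SPARC family, stood at 41.9 and 139 CPM (log2 -1.62), Fbln5, which helps elastic fibres to form, at 126 and 260 CPM (-1.02), and Smoc2 at 135 and 230 CPM (-0.75), each with all Bbs8 WT sets above. Fstl1, at 3531 and 4042 CPM, had a log2 ratio of -0.19. Wisp2, the third gene past the fold upwards, stood at 29.9 and 11.8 CPM with overlapping sets. The minimum of 20 UMIs was on the sum of both genotypes, so Tnc and Nov passed it through Bbs8 KO alone, and their place among the higher genes followed in part from the filter.

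Of 22 receptors of these proteins, 18 had at least 20 stromal UMIs, 3 were at least 2-fold higher and 0 lower, beside 13.9% and 2.34% of all genes, and the median was 0.06. All Bbs8 KO sets were above in 3 of the 18 and all Bbs8 WT sets in 2, beside 5.42% and 1.44% of all genes. Calr, which binds thrombospondin 1 at the cell surface and serves as a chaperone within it, stood at 874 and 1648 CPM (log2 -0.91, -1.08 to -0.75), and its partner Lrp1 at 611 and 791 CPM (-0.37), both with all Bbs8 WT sets above. Itgb1, the common chain of fibronectin receptors, stood at 562 and 700 CPM (-0.31). The thrombospondin receptors Cd36 (0.20) and Cd47 (0.07) had intervals that include 0. Stab1, a scavenger receptor of macrophages that takes up SPARC, stood at 40.7 and 5.91 CPM and Sdc3 at 25.1 and 5.91 CPM. Itga6, the third gene past the fold upwards, stood at 39.5 and 5.91 CPM with overlapping sets. These 3 receptors had 2 UMIs each in Bbs8 WT and passed the minimum through Bbs8 KO. Stab1 and Sdc3 moved with the macrophage markers given above, and the part of these in their values was not tested.

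Of 18 genes of TGF-beta signalling, 13 were tested, 1 was at least 2-fold higher (Acta2, the smooth muscle actin, at 39.5 and 14.8 CPM), 0 were lower, against 13.9% and 2.34% of all genes, and the log2 ratios had a median of 0.10. Tgfbr2, the receptor that binds the ligand, stood at 451 and 351 CPM (0.36, 0.06 to 0.67), the co-receptor Tgfbr3 at 198 and 295 CPM (-0.57) and Ltbp4, which holds latent TGF-beta in the matrix, at 216 and 286 CPM (-0.40), all with overlapping sets. Of 16 immediate early genes tested, 2 were at least 2-fold higher (Myc and Dusp1) and 0 lower, again beside 13.9% and 2.34%, with a median of -0.25, and Egr1 stood at 165 and 289 CPM, Klf4 at 170 and 257 CPM and Jun at 141 and 168 CPM. The heat shock genes of dissociation (4 tested, 1 higher and 0 lower, too few to read against those shares, median -0.13) summed to 201 and 195 CPM, with Hsp90aa1 at 87.4 and 76.8 CPM, Dnajb1 at 35.9 and 50.2 CPM and Hspa8 at 38.3 and 8.86 CPM.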

How the data were processed

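Per the methods, the authors demultiplexed reads with bcl2fastq 2.20 and made UMI counts with dropSeqPipe on the mm10 genome. They evened depth with downsampleBatches of scuttle and filtered cells by genes and mitochondrial share. Whether the deposited counts precede the depth step was not stated. Cells in the table had 101 to 994 genes. All columns carried a genotype (0 unmapped).

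Barcode sets were integrated in Seurat 5.3.0 (2000 features, 30 dimensions, resolution 0.8), and clusters were named from marker lists (mean log2 fold over 0.5, at least 3 markers). Rebuilt names may differ from those of the study. No doublet caller was run and doublets were kept. UMIs were summed per class and genotype as CPM. Ratios used a pseudocount of 5 CPM, and 95% intervals (Poisson, Clopper-Pearson, conditional) and limits of 3 counts for 0 cover counting error only. The ratio was tested on simulated data. Alternatives included TMM (edgeR 4.0.16) and DESeq2 1.42.0 scaling, other filters, clusterings and leaving out each set.

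Members and lists were chosen with earlier results of these data known. Named were all members, and from each list the 3 most abundant genes and those past 2-fold with sets apart. Cd36, Cd47, Wisp2, Itga6, Acta2, Myc and Dusp1 were named besides, after their values were seen.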

Additional observations from a re-analysis of the deposited data

Results flagged for a closer look

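Of 48 groups of 5 barcode sets (8 members in all stromal, P1-like and P2-like cells of each genotype), 4 held a set whose gap to the nearest other set took most of the range by Dixon's criterion at 95%, and chance flags about 1 group in 20. In all stromal cells of Bbs8 WT, set WT3_p3 had the lowest Tnxb, at 165 CPM (5 UMIs), beside 339 to 398 CPM in the other sets. The same set had the highest Postn in all stromal cells of Bbs8 WT, at 5840 CPM (177 UMIs), beside 3540 to 4160 CPM. In P2-like cells of Bbs8 KO, KO5_p2 had the highest Thbs1, at 796 CPM (41 UMIs), beside 538 to 608 CPM. In P2-like cells of Bbs8 KO, KO5_p3 had the lowest Tnxb, at 147 CPM (8 UMIs), beside 189 to 205 CPM. Without KO5_p2, the log2 ratio of Thbs1 in P2-like cells was 2.60.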

How the results depend on the processing

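Thbs1 kept its direction in all stromal cells under every alternative run, with log2 ratios from 2.34 (unnamed clusters counted as stromal) to 3.52 (without cells with immediate early UMIs), and from 2.71 to 3.17 with each barcode set left out. Sparcl1 kept its direction too, at -0.97 with TMM and with DESeq2 scaling, -0.58 without cells with immune UMIs and -0.92 with unnamed clusters counted as stromal. Without cells with immune UMIs, Sparc (0.041) and Tnxb (0.013) changed sign, and Sparc did so without integration (0.067). TMM gave -0.44 for Fn1, -0.26 for Sparc and -0.40 for Postn, and DESeq2 gave -0.45, -0.26 and -0.41. Without cells with immediate early UMIs, Fn1 stood at -0.42, Sparc at -0.20 and Postn at -0.41, and Postn in P3-like cells turned to 0.50. Fn1 stood at -0.14 with at least 200 genes per cell and at -0.11 without integration. With stromal cells called by markers alone, Fn1 stood at -0.48, Sparc at -0.25, Tnxb at -0.86 and Postn at -0.43. With unnamed clusters counted as stromal, which was chosen after seeing the data as were the alternatives within subtypes, for barcodes found in 7 or more sets and for cells with a Thbs1 UMI by set, Thbs2 stood at -0.082, Fn1 at -0.53, Sparc at -0.33, Tnxb at -0.92 and Postn at -0.48. With each set left out, Sparc ranged from -0.15 (without WT4_p2) to -0.0034, Postn from -0.32 (without WT4_p2) to -0.14, and Postn in P3-like cells from -1.89 to 0.31 (without WT4_p2). The share of genes at least 2-fold higher came to 3.41% when 200 UMIs per gene were required, and the share at least 2-fold lower was 4.1% with TMM and 4.18% with DESeq2 scaling. The causes of these shifts were not tested. Thinning to 200 UMIs lowered all 16 stromal shares of cells with a UMI, as fewer UMIs per cell must. No paired analysis was possible because the set codes carry no replicate number of a labelled sample and the comparison has no test. Thbs1 rests on 13 UMIs in Bbs8 WT stromal cells, which limits its ratio.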

Other observations

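Mitotic-like cells, a class led by Mki67 and Top2a that can hold dividing cells of several types, had Fn1 at 353 CPM in Bbs8 KO (226 to 525, 24 UMIs in 12 of 128 cells). In Bbs8 WT it stood at 1421 CPM (944 to 2053, 28 UMIs in 7 of 33 cells). Of these UMIs, 21 lay in WT3, and 1 cell held 8. The Bbs8 WT sets ranged from 0 to 4119 CPM and those of Bbs8 KO from 59.6 to 690 CPM, with overlap. Macrophage-like cells had Fn1 at 428 CPM (351 to 516) in the knockout, against 254 CPM (139 to 427) in the wild type, with overlapping sets and an interval of the ratio (0.960 to 3.18) that includes equality. In cells of the unnamed clusters, which no marker list named, Thbs1 stood at 93.7 CPM (53 UMIs) in Bbs8 KO and 53.6 CPM (3 UMIs) in Bbs8 WT, and Sparcl1 at 734 and 1143 CPM.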
